A study of Homo sapiens with 9 samples.

Results

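The cells described here are those with the highest share of early S phase transcripts in 6 single-cell RNA libraries of U2OS, a human osteosarcoma line. They were selected on measured values. In each library, the UMIs (unique molecular identifiers, 1 per captured transcript) of 10 scoring genes, PCNA, MCM3, MCM5, MCM6, GINS2, CDC6, UNG, FEN1, TYMS and CCNE2, were summed and divided by all UMIs of the cell, a share given below in CPM, the counts-per-million scale. Cells in the top 15% of this S share were called S cells and all others remaining cells, which gave 3068 S cells among 20451 cells. S cells and remaining cells numbered 522 and 2961 in HaloTag 25R, 556 and 3149 in HaloTag 52R, 702 and 3975 in HaloTag 70R, 468 and 2653 in Dendra2 25R, 412 and 2335 in Dendra2 52R and 408 and 2310 in Dendra2 70R. The fraction of S cells is thus set by the rule and says nothing about how many cells were replicating, and DNA content was not measured.

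Every library carried an altered RPB1, the largest subunit of RNA polymerase II, fused at the N-terminal end to HaloTag, a self-labelling enzyme for synthetic dyes, or to Dendra2, a fluorescent protein that changes colour in light. The C-terminal domain (CTD) of RPB1 held 25, 52 or 70 heptad repeats (25R, 52R, 70R). All 6 lines, the 52R lines included, had been treated for 6 days with α-amanitin (1 µg/ml), a toxin that blocks the cell's own RNA polymerase II, so no untagged or untreated cells stand beside them. The labels do not say whether a line is 1 clone. The 9 labelled samples are 6 libraries, because the HaloTag libraries have 2 sequencing runs each, merged in the counts, whereas the Dendra2 libraries have 1, so tag and sequencing cannot be told apart.

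At the start of S phase, cyclin E and its kinase CDK2 release E2F transcription factors from the retinoblastoma protein, and E2F switches on the genes for origin licensing, the replication fork, nucleotide supply and histone synthesis. Origins are licensed by loading the MCM2-7 helicase, which CDC45 and the GINS complex then activate, while PCNA clamps the polymerases to DNA. Genes needed in G2 and mitosis are driven later, from promoters that often hold a cell cycle homology region (CHR) and NF-Y boxes, and S phase histone mRNAs end in a stem-loop bound by SLBP instead of a poly(A) tail. A library primed on poly(A) therefore captures histone cluster mRNAs only in part.

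Stretches upstream of the gene start (RefSeq, GRCh38.p14) are shown for genes on which the results turn, chosen among those that hold a searched word. Others described below hold none of that kind in the 250 bases searched, among them EXO1, CCNE1, CDC45, CLSPN, RRM2 and SLBP for E2F-type words and NEK2, KIF20A and CCNB1 for CHR words. The first 5 hold a word of the E2F type, searched as TTTCCCGC, TTTGGCGC, TTTGCCGC or TTTCGCGC on both strands, and the capitals mark the words. MCM6, PCNA and GINS2 are scoring genes, while E2F1 and CDC25A played no part in the choice of cells. In MCM6 the 4 words overlap in 2 pairs. The GINS2 stretch lies before the RefSeq gene start but inside the gene's wider bounds in GENCODE 44.
MCM6 (chr2:135876502-135876615, minus strand): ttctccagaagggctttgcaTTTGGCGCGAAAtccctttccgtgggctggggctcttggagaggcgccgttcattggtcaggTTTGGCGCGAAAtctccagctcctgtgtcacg
PCNA (chr20:5126654-5126701, minus strand): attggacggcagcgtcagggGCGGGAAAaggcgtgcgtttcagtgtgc
GINS2 (chr16:85688958-85689005, minus strand): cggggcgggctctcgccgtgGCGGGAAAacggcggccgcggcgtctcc
E2F1 (chr20:33686386-33686438, minus strand): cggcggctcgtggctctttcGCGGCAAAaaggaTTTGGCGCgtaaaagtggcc
CDC25A (chr3:48188434-48188481, minus strand): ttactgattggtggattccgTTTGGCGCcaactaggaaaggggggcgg

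The next 3 belong to genes of G2 and mitosis, and capitals mark a CHR word, TTTGAA or TTCGAA on either strand. CDC20 activates the anaphase-promoting complex, TOP2A untangles DNA and MKI67 encodes the Ki-67 antigen of dividing cells.
CDC20 (chr1:43358783-43358941, plus strand): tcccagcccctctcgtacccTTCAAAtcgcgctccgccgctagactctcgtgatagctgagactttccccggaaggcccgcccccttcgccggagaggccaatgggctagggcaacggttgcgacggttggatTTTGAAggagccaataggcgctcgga
TOP2A (chr17:40418022-40418110, minus strand): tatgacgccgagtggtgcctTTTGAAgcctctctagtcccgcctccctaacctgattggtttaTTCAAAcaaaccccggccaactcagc
MKI67 (chr10:128126427-128126490, minus strand): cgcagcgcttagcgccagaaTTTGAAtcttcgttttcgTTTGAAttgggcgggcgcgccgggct

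The last 3 belong to histone genes of chromosome 6, with the NF-Y box CCAAT in capitals (ATTGG on the other strand). The linker histone genes HIST1H1A and HIST1H1E share a run of 18 bases around that box, and 34 of the 45 positions shown are identical.
HIST1H3B (chr6:26032129-26032215, minus strand): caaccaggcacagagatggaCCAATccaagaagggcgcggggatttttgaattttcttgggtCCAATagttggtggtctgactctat
HIST1H1A (chr6:26017817-26017861, minus strand): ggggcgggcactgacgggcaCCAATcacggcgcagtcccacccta
HIST1H1E (chr6:26156255-26156299, plus strand): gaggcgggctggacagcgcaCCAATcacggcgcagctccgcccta

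The scoring values are given as a description, since they chose the cells. The S share at the cut lay between 1645 (Dendra2 25R) and 1899 (HaloTag 52R) CPM. In HaloTag 25R the last cell inside stood at 1683.4 and the first outside at 1683.1, and in Dendra2 52R they stood at 1857 and 1855. Between 8.57% and 14.5% of the cells of a library lay within 10% of the cut, so the border runs through a continuous range of cells. The median S cell held 26 to 38.5 scoring UMIs and the median remaining cell 7 to 20. Each scoring gene was higher in S cells of every library, by a mean of 0.94 (TYMS) to 2.26 (CCNE2) on the log2 scale. When the S share was computed without the gene in question, the means still ran from 0.55 for TYMS to 1.93 for CCNE2. TYMS weighed most in the score, at 679 to 827 CPM in S cells, where no other scoring gene passed 344 CPM. Scoring without TYMS kept 71.8% to 81.9% of a library's S cells, and scoring without any other gene 85.4% or more.

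Remaining cells differed between the tags in how far they sat from the cut. With 25, 52 and 70 repeats, their median S share was 855, 800 and 647 CPM under HaloTag and 974, 1104 and 1043 CPM under Dendra2. Remaining cells with no scoring UMI at all made up 1.25%, 4.51% and 7.27% in HaloTag libraries and 1.06%, 0.771% and 1.65% in Dendra2 libraries. The S cells themselves had similar median shares, 1981, 2303 and 2145 against 1884, 2099 and 1987.

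S cells held slightly more different transcripts for the same number of UMIs. In cells thinned to 5000 UMIs (shallower cells, 4 to 17 S cells and 30 to 200 remaining cells per library, left out), the median number of genes was 2093 ± 42.7 in S cells and 2047 ± 30.6 in remaining cells (SD, n = 6), higher in 6 of 6 libraries (exact sign-flip permutation test, 2-sided p = 0.0312, adjusted over 2 tests 0.0312, the smallest p that 6 libraries allow). Unthinned, the median UMIs per S cell and remaining cell were 16606 and 15922, 14865 and 13158, and 12022 and 10483 in the HaloTag libraries, and 15729 and 15772, 18084 and 18368, and 18787 and 18716 in the Dendra2 libraries. Total UMIs stand in the denominator of the S share, so depth is not independent of the choice of cells. The number of genes is not independent of it either, because the 10 scoring genes were among the genes counted. Its gap was smallest in Dendra2 52R, with medians of 2056 and 2039.

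The sums over S cells held 7487596 (Dendra2 25R) to 8828914 (HaloTag 25R) UMIs and those over remaining cells 45058513 (Dendra2 52R) to 49613309 (HaloTag 25R). No pair of libraries shared more than 7 cell barcodes. The labels call the cells epithelial. EPCAM and CDH1, which define epithelia, were at or below 7.87 CPM, the keratins KRT8 and KRT18 at 143 to 568 and 693 to 1391 CPM, and the mesenchymal VIM at 2427 CPM or more in every sum, with SPARC at 121 to 263 and COL1A2 at 0 to 0.219. Of the leukocyte list, 7 of 10 markers did not pass the filter on low counts, NKG7 had no UMI in any library, and the 3 tested markers were not called in either direction. The endothelial list had 1 of 8 markers tested, ERG, which was not called. Of the epithelial list, 6 of 10 were tested, and 2 rose and 1 fell. The count that rose was 0 without Dendra2 52R and 1 when HaloTag 25R, HaloTag 52R, Dendra2 25R or Dendra2 70R was left out.

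UMIs were summed over the S cells and over the remaining cells of each library, and the 12 sums were compared with the library as a block, so that the 6 libraries were the replicates. The labels name no separate cultures, so p-values measure the spread between single libraries. Among 16098 genes tested, edgeR's quasi-likelihood test called 4489 (27.9%) at an adjusted p under 0.05, of which 2397 (14.9%) were higher in S cells and 2092 (13.0%) lower. The scoring genes were left out of the tests. Differences were mostly small: 95 called genes were at least 2-fold higher and 80 at least 2-fold lower, and the median over all genes tested was -0.02 (log2). A called gene had the same direction in 6 of 6 libraries in 3425 cases. All counts below are to be read against these shares, and the gene lists were chosen with earlier results of these data known. The libraries are always given in the order HaloTag 25R, 52R, 70R and Dendra2 25R, 52R, 70R. Levels are CPM after TMM scaling, and log2 differences are S cells minus remaining cells with the SE of the fit.

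Regulators of the step from G1 into S were higher in S cells. Of 19 tested, 16 rose, 1 fell and 2 were not called, with a median of 0.67 against -0.02 for all genes. Cyclin A2 (CCNA2), 1 of the 2 not called, is described below beside the genes of G2 and mitosis. E2F1 (ENSG00000101412, chr20:33675477-33686385 in GRCh38), an activator of replication genes, stood at 46.1, 61, 55.9, 61.8, 65.7 and 55.4 CPM in S cells. In remaining cells it stood at 16.8, 19, 15.8, 30.4, 33.1 and 29.7 CPM. Every S cell sum was above every remaining cell sum, and E2F1 was 1.30 ± 0.09 higher (adjusted p = 1.14e-08). CCNE1 (chr19:29811991-29824312), cyclin E1, the partner of CDK2 at this step, was at 85.9, 104, 127, 109, 114 and 102 CPM in S cells and 37.5, 35.5, 40.5, 61.1, 50.2 and 55 in remaining cells, again without overlap (1.22 ± 0.08, adjusted p = 3.23e-09). E2F8, a repressor of the same targets, was 1.38 ± 0.11 higher and CDC25A, the phosphatase that activates CDK2, 0.94 ± 0.08 higher. Both promoters printed above for E2F1 and CDC25A hold an E2F-type word. CCND1, the cyclin D1 gene that acts earlier in G1, was the member that fell, by 0.24 ± 0.03, with lower levels in 6 of 6 libraries, and 2 members fell without HaloTag 25R.

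Origin licensing and firing factors outside the scoring genes moved the same way. Of 20 tested, 18 rose and 0 fell (1 without Dendra2 70R), with a median of 0.68. CDC45 (chr22:19479457-19520612), a part of the active helicase, was at 41.3, 84.1, 106, 57.7, 73 and 89.4 CPM in S cells and 17.4, 29.7, 31.7, 30.1, 41.8 and 48.3 CPM in remaining cells. The ranges overlapped between libraries, with the 25R libraries low in both kinds of cell, but S cells were higher in 6 of 6 (1.20 ± 0.09, adjusted p = 1.97e-08). MCM10, which helps to activate the helicase, was 1.16 ± 0.08 higher, and the helicase subunits MCM2 and MCM4 were 0.98 ± 0.06 and 0.91 ± 0.05 higher.

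At the replication fork, all 30 tested genes rose, from 0.19 to 1.77, with a median of 0.67. The largest difference was that of FAM111B (chr11:59107185-59127412), which encodes a protease. Its level was 135, 160, 157, 133, 120 and 118 CPM in S cells and 32.2, 38.5, 33.2, 50, 44.6 and 45.5 CPM in remaining cells. S cells were 3.41-fold higher in the fit (1.77 ± 0.09, adjusted p = 2.09e-10), and the 2 kinds of cell did not overlap. CLSPN, which encodes the checkpoint adaptor claspin, was 1.13 ± 0.08 higher, POLD3, a subunit of polymerase delta, 1.03 ± 0.07, and DNA2, a nuclease of Okazaki fragments, 1.02 ± 0.07.

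Nucleotide synthesis genes rose in 14 of 18 cases and fell in 1 (0 without HaloTag 25R or HaloTag 52R), with a median of 0.37. RRM2 (chr2:10120698-10211725), the regulated subunit of ribonucleotide reductase, was at 168, 290, 221, 192, 306 and 174 CPM in S cells and 76.9, 117, 84.8, 112, 187 and 100 CPM in remaining cells. The 52R libraries were the highest of each tag, and within each library S cells were above remaining cells (1.02 ± 0.07, adjusted p = 5.95e-09). DUT, whose enzyme removes dUTP, was 0.73 ± 0.05 higher, and RRM1, the large reductase subunit, 0.66 ± 0.06.

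Genes of S phase repair and checkpoints made up the list with the highest median among the replication lists, 0.76, and 29 of 30 rose with 0 falling. EXO1 (chr1:241847967-241895148), an exonuclease of mismatch repair and end resection, was at 36, 39.4, 42.4, 36.3, 29.4 and 33.2 CPM in S cells and 12.1, 11.6, 11.5, 18.6, 15.5 and 17.2 CPM in remaining cells. No sums overlapped (1.35 ± 0.11, adjusted p = 3.3e-08). BRIP1, a helicase partner of BRCA1, was 1.19 ± 0.08 higher, and DTL, a substrate receptor that marks proteins for removal on PCNA, 1.12 ± 0.09. In cohesion establishment, 9 of 14 genes rose and 1 fell (median 0.25; 2 fell without HaloTag 25R, and 0 when Dendra2 52R, Dendra2 70R or either of the other HaloTag libraries was left out), led by ESCO2, the acetyltransferase that locks cohesin on sister chromatids (1.13 ± 0.09), with CDCA5, which encodes sororin, at 0.72 ± 0.07 and the cohesin subunit SMC1A at 0.42 ± 0.04.

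Chromatin assembly genes moved the same way. Of 20 genes, 18 rose and 0 fell (median 0.58). CHAF1B and CHAF1A, subunits of the histone chaperone CAF-1, were 1.07 ± 0.10 and 0.98 ± 0.09 higher, HELLS, a remodeler that supports DNA methylation, 1.02 ± 0.06, and ASF1B, a chaperone of H3 and H4, 0.93 ± 0.07. SLBP (chr4:1692731-1712344) was at 103, 99.8, 107, 77.9, 81.6 and 81.2 CPM in S cells and 49.4, 49, 50, 50.6, 52.1 and 54.7 CPM in remaining cells. Remaining cells were nearly level across libraries, whereas S cells of HaloTag libraries stood above those of Dendra2 libraries (0.85 ± 0.06 over all 6, adjusted p = 1.54e-08). WDR76 and ATAD2, outside the lists, were among the largest differences: WDR76, a WD-repeat protein, at 1.34 ± 0.08 and ATAD2, a bromodomain ATPase, at 1.22 ± 0.08.

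In the fit over all 6 libraries, histone cluster genes had the highest medians of all lists. Of 65 core histone cluster genes, 36 passed the filter on low counts, and of these 28 rose and 0 fell (1 without Dendra2 25R), with a median of 0.96. The 3 linker histone cluster genes that passed, of 6, all rose (median 1.14). By library, the core list's median was 0.53, 0.72, 0.84, 0.84, 0.94 and 0.95, and the fork list's 0.80, 0.87, 0.95, 0.49, 0.45 and 0.52. The core list was thus below the fork list in HaloTag libraries and above it in Dendra2 libraries. These per-library values used a prior count of 2, which draws low counts toward 0. HIST1H3D (H3C4, chr6:26196784-26197286), an H3 gene, was at 7.21, 21.4, 15.4, 157, 240 and 159 CPM in S cells and 3.21, 8.71, 4.68, 65.8, 102 and 60.3 CPM in remaining cells. It was several times higher with Dendra2 in both kinds of cell, and S cells were higher in 6 of 6 libraries (1.32 ± 0.05, adjusted p = 7.1e-12). HIST1H1A (H1-1, chr6:26017032-26017787), a linker histone gene, was at 71.4, 188, 108, 167, 324 and 253 CPM in S cells and 26.2, 67.8, 34.5, 83.4, 155 and 104 CPM in remaining cells (1.31 ± 0.06, adjusted p = 8.85e-11).

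Among the other histone genes, HIST1H2AH was 1.37 ± 0.07 higher, HIST2H2AC 1.26 ± 0.06, HIST1H3B 1.18 ± 0.06, HIST1H1E 1.14 ± 0.06 and HIST1H1C 0.61 ± 0.04. HIST1H4C (H4C3), an H4 gene, ran from 15.3 to 1677 CPM in S cells and from 5.62 to 942 CPM in remaining cells, with the 52R library the highest of each tag, and was 1.04 ± 0.09 higher (adjusted p = 1.16e-07). When cells were scored on MCM3, MCM5, MCM6, GINS2 and CDC6 only, this difference was 0.15 and not called (adjusted p = 0.118). Near-identical histone copies such as HIST2H2AA3 and HIST2H2AA4 can share reads, so single copies are uncertain. By contrast, the replacement histones, which are also made outside S phase, from polyadenylated mRNA, rose in 7 of 9 cases with a median of 0.16 (2 of 9 when scored on the 5 genes just named). H2AFZ (H2AZ1), the H2A.Z gene, went from 1072 to 2177 CPM in remaining cells to 1414 to 2298 CPM in S cells (0.24 ± 0.04, adjusted p = 9.55e-05).

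**Figure D1:**
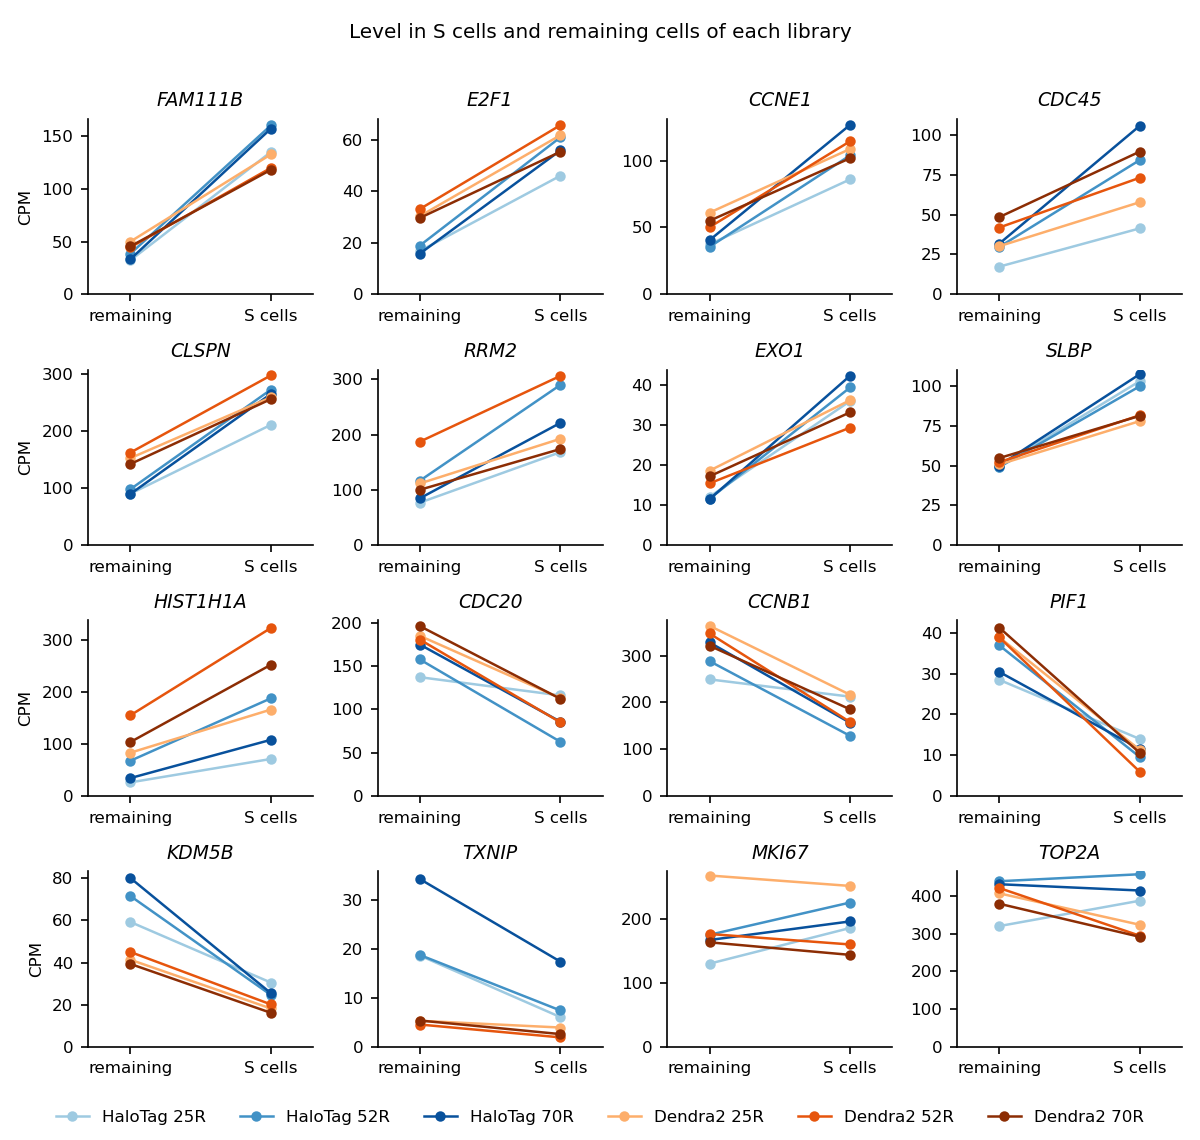
Level of 16 genes in remaining cells and S cells, in CPM after TMM scaling on axes that start at 0, with 1 point per library and class and a line joining the points of a library. FAM111B rises in every library from 32.2 to 50 CPM to 118 to 160 CPM, PIF1 falls in every library, and MKI67 and TOP2A go up in some libraries and down in others.

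Genes of G2 and mitosis were mostly lower in S cells. Of 59 tested, 36 fell, 3 rose and 20 were not called, with a median of -0.32. PIF1 (chr15:64815632-64825668), a DNA helicase, had the largest fall. It was at 14, 9.55, 11.5, 11.3, 5.93 and 10.6 CPM in S cells and 28.5, 36.9, 30.4, 38.9, 38.9 and 41.3 CPM in remaining cells, without overlap (-1.75 ± 0.12, adjusted p = 6.84e-09). The mitotic kinesin KIF20A (-1.35 ± 0.13), the centrosome kinase NEK2 (-1.20 ± 0.09), the mitotic kinase PLK1 (-1.19 ± 0.10) and ARL6IP1 (-1.11 ± 0.06) followed. CDC20 (chr1:43358981-43363203) was at 116, 62.5, 85.7, 113, 85 and 112 CPM in S cells and 137, 158, 175, 185, 181 and 196 CPM in remaining cells. HaloTag 25R showed the smallest gap, but no S cell sum reached a remaining cell sum (-0.86 ± 0.09, adjusted p = 5.76e-07). CCNB1, cyclin B1, was lower in 6 of 6 libraries (-0.85 ± 0.08, adjusted p = 2.84e-07).

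The G2 and mitosis genes did not fall as a block. CDK1 (chr10:60778331-60794852), the kinase that starts mitosis, was higher in 6 of 6 libraries (0.42 ± 0.07, adjusted p = 0.000198), from 131, 176, 221, 196, 215 and 246 CPM in remaining cells to 209, 299, 343, 222, 230 and 270 CPM. MKI67 was at 186, 225, 196, 251, 160 and 144 CPM in S cells and 130, 175, 167, 268, 176 and 163 CPM in remaining cells, higher in the 3 HaloTag libraries and lower in the 3 Dendra2 libraries (0.12 ± 0.07, adjusted p = 0.204). TOP2A was at 387, 457, 414, 323, 294 and 291 CPM in S cells and 320, 439, 431, 407, 421 and 379 CPM in remaining cells (-0.15 ± 0.07, adjusted p = 0.107). CCNA2, cyclin A2, is counted above with the regulators of the step from G1 into S, not in this list. It stood at 53.3 to 63.7 CPM in S cells and 47.3 to 72.1 CPM in remaining cells (-0.08 ± 0.07, adjusted p = 0.438). Without HaloTag 25R, TOP2A was at -0.24 (adjusted p = 0.00623) and CCNA2 at -0.19 (adjusted p = 0.0191), both called.

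How many of these genes fell depended on the scoring genes. As a score, the 5 genes MCM3, MCM5, MCM6, GINS2 and CDC6 are called the licensing genes for short, although GINS acts after licensing. With them as the score, 51 of the 59 fell and 0 rose (median -0.52). TOP2A was at -0.52 (adjusted p = 5.07e-06), CDK1 at 0.07 (adjusted p = 0.473) and CCNA2, outside the 59, at -0.41. With PCNA, UNG, FEN1, TYMS and CCNE2 as the score, 17 fell and 13 rose (median -0.02), MKI67 was at 0.28 (adjusted p = 0.0142) and TOP2A at 0.17. The replication fork list kept 29 and 30 higher members under these scores.

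**Figure D2:**
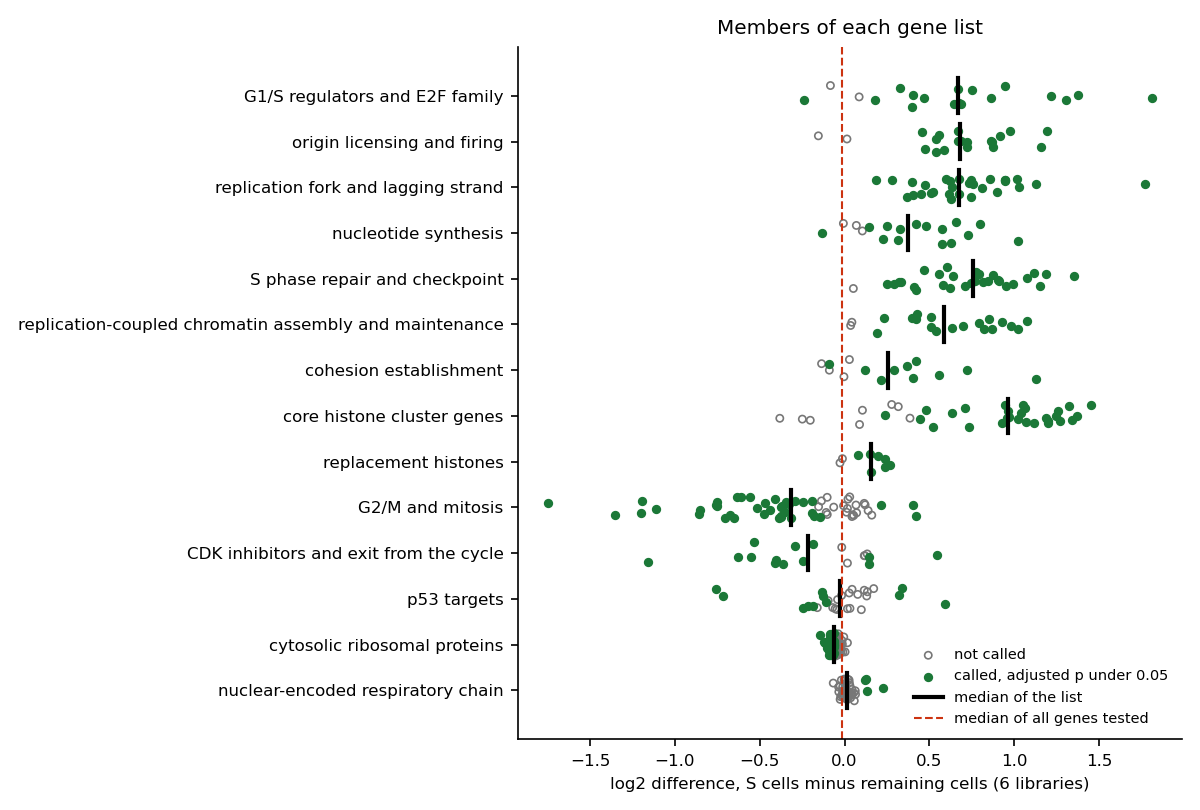
Log2 difference between S cells and remaining cells over 6 libraries for every tested member of 14 gene lists, 1 point per gene, filled where the gene was called, with a black bar at the list's median and a dashed line at the median of all genes tested (-0.02). All 30 replication fork genes lie above 0, the core histone genes have the highest median (0.96), and the G2 and mitosis genes spread from -1.75 to 0.42.

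Inhibitors of cyclin-dependent kinases and genes of cell cycle exit were mixed. Of 20 genes, 18 passed the filter, and 10 fell while 3 rose (median -0.21). The count that rose was 1 when Dendra2 25R, HaloTag 52R or HaloTag 70R was left out. TXNIP (chr1:145992435-145996579), the thioredoxin-binding arrestin, was at 6.08, 7.44, 17.4, 3.95, 1.93 and 2.61 CPM in S cells and 18.7, 18.8, 34.4, 5.33, 4.57 and 5.39 CPM in remaining cells. HaloTag libraries were higher in both kinds of cell, and S cells were lower in 6 of 6 libraries (-1.16 ± 0.10, adjusted p = 1.57e-07). MXD4, a MYC antagonist, was 0.63 ± 0.07 lower, the cyclin CCNG2 0.55 ± 0.08 and the antiproliferative TOB1 0.53 ± 0.07. CDKN2C, the inhibitor p18, was instead 0.54 ± 0.07 higher. CDKN1A, the inhibitor p21, was at 182, 95, 125, 140, 104 and 119 CPM in S cells and 203, 89.8, 107, 122, 86.6 and 111 CPM in remaining cells, higher in 5 of 6 libraries (0.12 ± 0.04, adjusted p = 0.0598). Without HaloTag 25R, where it was lower, it was at 0.18 (adjusted p = 0.00206). With the licensing genes as the score, edgeR instead called it lower, at -0.10 (adjusted p = 0.0234). Measured against remaining cells with an S share above their library's median (for all cells), 2 of the 18 fell and 4 rose, MXD4 was at -0.07 (adjusted p = 0.422) and CCNG2 at -0.18 (adjusted p = 0.126). That comparison was chosen after seeing the data.

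Targets of p53 went both ways. Of 29 genes, 28 passed, 8 fell and 3 rose (5 without HaloTag 25R), beside 13.0% lower and 14.9% higher among all genes, and the median was -0.03 beside -0.02. By library, the list's median was -0.15, -0.14 and -0.05 with HaloTag and 0.01, 0.12 and 0.08 with Dendra2. Those that rose were ATF3, a stress transcription factor (0.59 ± 0.08), PPM1D, a phosphatase that opposes p53 (0.34 ± 0.06), and DDB2, which recognises UV damage (0.32 ± 0.04). Those that fell included CCNG1 (-0.19 ± 0.05), with a mean of -0.35 in HaloTag and -0.03 in Dendra2 libraries. By score, 17 fell and 4 rose with the licensing genes, and 3 fell and 8 rose with the other 5, so the direction of this list changed with the score. Of the immediate early genes, 13 of 15 passed, 5 rose and 2 fell, with JUND, an AP-1 subunit, 0.36 ± 0.03 higher (adjusted p = 2.97e-08).

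Among the genes with the largest falls at 20 CPM or more, some are in none of the gene lists. KDM5B (chr1:202724495-202808487), a demethylase of histone H3 lysine 4, was at 30.5, 24.7, 25.5, 18.2, 20.1 and 16.2 CPM in S cells and 59.3, 71.7, 80.2, 41.4, 45.1 and 39.4 CPM in remaining cells. The 2 kinds of cell did not overlap (-1.31 ± 0.07, adjusted p = 3.83e-10). MAF, a bZIP transcription factor, was 1.25 ± 0.14 lower, ZNF114, a zinc finger gene, 1.22 ± 0.12 lower, UBALD2 0.99 ± 0.07 lower and HMOX1, heme oxygenase 1, 0.86 ± 0.07 lower. The noncoding RNA LINC00520 was at 102 and 259 CPM in S cells and remaining cells of HaloTag 25R and below 17 CPM elsewhere. Its fitted difference of -1.66 ± 0.14 was -2.37 without that library. IGFL2-AS1, an antisense RNA, was 1.10 ± 0.08 lower, and against remaining cells above the library's median S share it was at -0.06 (adjusted p = 0.515). KDM5B was called in all 21 alternatives run.

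Housekeeping groups moved little. Of 73 cytosolic ribosomal protein genes tested, 37 fell and 0 rose, but the median was -0.06, with RPL23 at -0.14 ± 0.03 and RPL3 at -0.12 ± 0.03. By library, the list's median was -0.08, -0.10 and -0.13 with HaloTag and -0.01, 0.0003 and -0.02 with Dendra2. The count that fell was 21 without HaloTag 52R, 20 without HaloTag 70R and 14 by DESeq2. Of 42 nuclear-encoded respiratory chain genes, 4 rose and 0 fell (median 0.01). Of the 13 mitochondrially encoded mRNAs, 8 fell (5 without HaloTag 25R) and 1 rose (median -0.06), led by MT-ND2 (-0.14 ± 0.03), which was at -0.06 and not called (adjusted p = 0.0823) when MT- UMIs were left out of the S share's denominator. In that setting 0 of the 13 were lower by the test. The count that rose was 1 without Dendra2 70R and 0 when any other library was left out. The median mitochondrial percentage at 5000 UMIs was 6.80% ± 1.59 in S cells and 7.08% ± 1.54 in remaining cells (SD, n = 6), lower in 6 of 6 libraries (exact sign-flip permutation test, 2-sided p = 0.0312, adjusted over 2 tests 0.0312). With MT- UMIs out of the denominator it was lower in 4 of 6.

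Ribosome biogenesis genes rose in 9 and fell in 5 of 30 cases (median 0.02). With the licensing genes as the score 10 rose and 1 fell, with the other 5 genes 5 rose and 9 fell, and without Dendra2 70R 3 fell. Extracellular matrix genes rose in 3 and fell in 6 of the 26 that passed of 30 (median -0.02), and interferon response genes rose in 1 and fell in 7 of the 16 that passed of 20 (median -0.11), among them DDX58 (RIGI), a sensor of foreign RNA (-0.35 ± 0.07). Of the 12 RNA polymerase II subunit genes, 4 rose and 1 fell (1 rose without HaloTag 52R and 2 without HaloTag 70R or any 1 Dendra2 library). The one that fell was POLR2A (chr17:7484366-7514616), which encodes RPB1 itself. It was at 174, 253, 167, 296, 217 and 166 CPM in S cells and 198, 315, 206, 310, 250 and 193 CPM in remaining cells, lower in 6 of 6 libraries (-0.22 ± 0.03, adjusted p = 5.86e-05).

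The same groups were followed along the whole range of S share, in 20 bins of equal cell number per library, as a description. From the lowest to the highest bin, the replication fork list went from 680 to 1034 CPM up to 3277 to 3961 CPM. The list of inhibitors and exit genes went the other way, from 1121 to 1278 CPM down to 625 to 824 CPM. The G2 and mitosis list was low in the first bin and between 5452 and 7264 CPM in the last. It was highest in middle bins with HaloTag and in earlier bins with Dendra2. Cells high for other programs were spread unevenly: 1.46% to 9.20% of S cells and 16.0% to 17.4% of remaining cells were in the top 15% of their library for the G2 and mitosis list. For histone cluster genes the shares were 29.1% to 38.2% and 10.9% to 12.5%, and for p53 targets 4.98% to 10.9% and 15.7% to 16.8%.

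**Figure D3:**
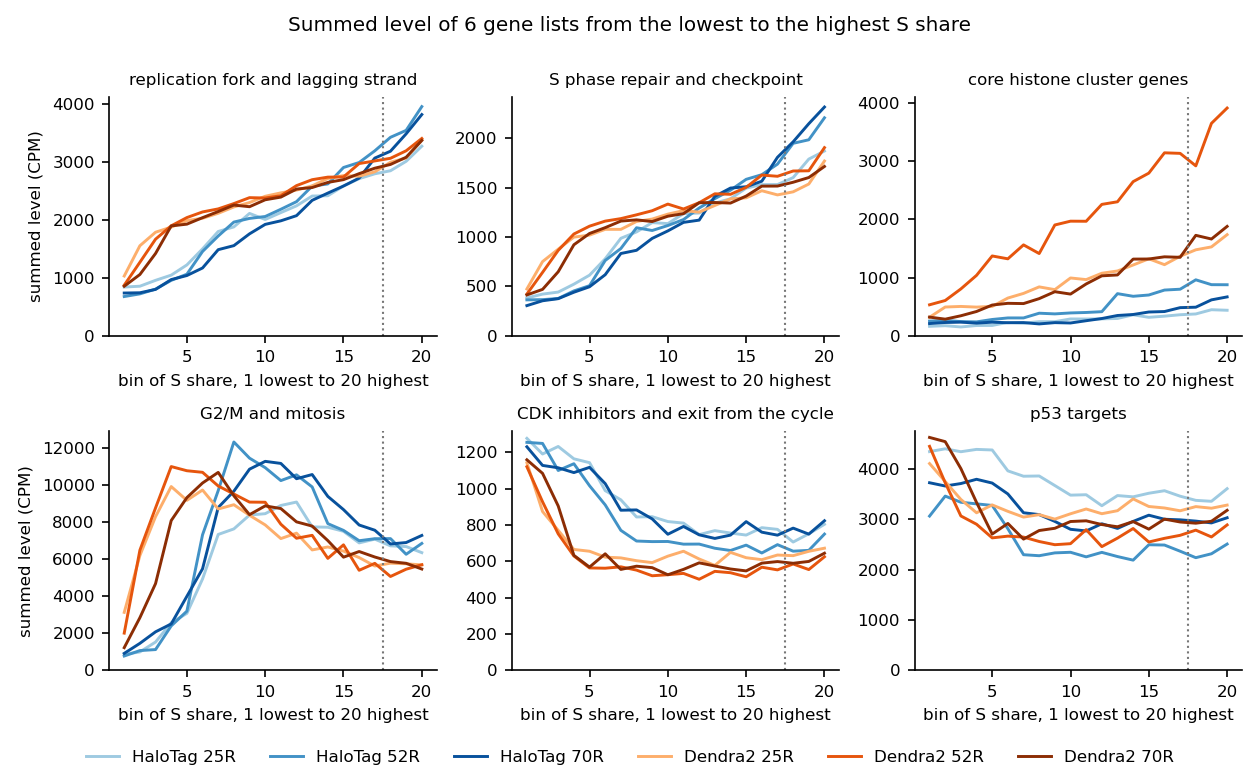
Summed level (CPM, axes from 0) of 6 gene lists in 20 equal bins of cells from the lowest to the highest S share, 1 line per library, with S cells to the right of the dotted line. In HaloTag libraries the G2 and mitosis list starts at 759 to 901 CPM and peaks in bins 8 to 12, whereas in Dendra2 libraries it starts at 1210 to 3114 CPM and peaks in bins 4 to 7.

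The difference between S cells and remaining cells was tested for a dependence on the tag. It was larger in HaloTag for 473 genes (2.94%) and smaller for 170 (1.06%) among the 16098 tested, by edgeR's test of the class by tag term. Of the genes higher in S cells, 1935 of 2397 had a term above 0 (350 called larger in HaloTag, 8 smaller). Of the genes lower in S cells, 574 of 2092 did (32 called larger, 95 smaller), and the median term over all genes was -0.01. For a gene that is lower in S cells, a term below 0 is a deeper fall with HaloTag. Among the lists, the term was called larger in HaloTag for 22 of 30 replication fork genes, 23 of 30 repair genes, 13 of 20 licensing genes, 13 of 20 chromatin assembly genes and 42 of 59 G2 and mitosis genes, and smaller for 0 in each of these lists. It was smaller for 25 of 73 ribosomal protein genes. EXO1 rose by a mean of 1.73 in HaloTag and 0.94 in Dendra2 libraries (term 0.80 ± 0.10, adjusted p = 1.35e-06), and AUNIP, an Aurora A partner, by 1.12 and 0.23 (0.87 ± 0.14, adjusted p = 0.000125).

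The G2 and mitosis list was nearer 0 with HaloTag. Its median difference was 0.07, -0.11 and -0.14 in HaloTag libraries and -0.41, -0.60 and -0.39 in Dendra2 libraries. Per cell, the list's median level was 6107, 6002 and 6200 CPM in S cells and 4757, 3062 and 2917 CPM in remaining cells of HaloTag libraries, and 5332, 5100 and 5161 CPM against 5910, 6206 and 5946 CPM in Dendra2 libraries. S cells were therefore above remaining cells by this measure with HaloTag and below them with Dendra2, while the level in S cells alone spanned 5100 to 6200 CPM. MKI67 (term 0.51 ± 0.06, adjusted p = 5.02e-07), TOP2A (0.50 ± 0.06, adjusted p = 6.07e-07) and CDK1 (0.56 ± 0.05, adjusted p = 4.55e-09) were among the genes with such a term, whereas CDC20 (0.02 ± 0.13, adjusted p = 0.957) and CCNB1 (0.08 ± 0.12, adjusted p = 0.827) had terms that were not called.

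The median S share of remaining cells, given above, was lower in each HaloTag library than in each Dendra2 library, and its part in the term was not tested. When S cells were set against only the remaining cells above the library's median S share, the tag term was called for 74 genes in place of 643, larger for 47 and smaller for 27. This choice cuts cells on the same S share that chose the S cells, which also narrows the difference between the 2 kinds of cell. Between them, 2418 genes were called in place of 4489. In that comparison 49 of the 59 G2 and mitosis genes fell and 2 rose (median -0.32), while 27 of the 30 fork genes still rose (median 0.30). Leaving out Dendra2 25R or Dendra2 52R lowered the count for the tag term to 405 and 367. The count smaller in HaloTag ran from 44 (without Dendra2 52R) to 311 (without HaloTag 25R), with 70 to 86 without any 1 of the others.

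Several genes had terms below 0. MAF fell by a mean of 1.75 in HaloTag and 0.62 in Dendra2 libraries (term -1.06 ± 0.12, adjusted p = 6.07e-07), and DBP, a clock-controlled transcription factor, by 1.00 and 0.20 (-0.88 ± 0.15, adjusted p = 0.000175). HIST1H4E (H4C5) was at 3.49, 7.11, 4.92, 29.3, 40.6 and 28.5 CPM in S cells and 3.79, 6.52, 6.46, 19.7, 24.7 and 15.7 CPM in remaining cells, so that it rose with Dendra2 and stood within a few CPM with HaloTag (-0.83 ± 0.15, adjusted p = 0.000536). DDIT3, the stress factor CHOP, had a term of -0.79 ± 0.17 (adjusted p = 0.00297), with 22.2 against 46.2 CPM in HaloTag 25R. Its overall fall of 0.44 ± 0.12 was -0.18 without that library (adjusted p = 0.194), and its tag term was not called without HaloTag 25R or Dendra2 70R.

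**Figure D4:**
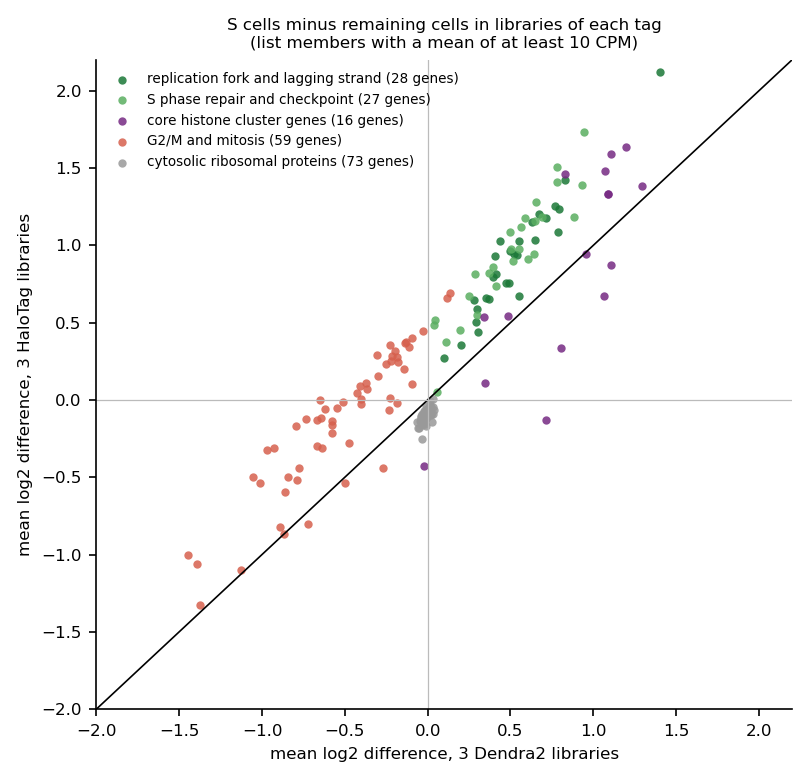
Mean log2 difference between S cells and remaining cells in the 3 HaloTag libraries (vertical) against the 3 Dendra2 libraries (horizontal), 1 point per list member with a mean of at least 10 CPM, with the diagonal where both are equal. Most replication and repair genes lie above the diagonal, as do most G2 and mitosis genes, and core histone genes lie on both sides.

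No dependence on CTD length was detected. edgeR's test of the 2 class by CTD terms called 0 of 16098 genes (0.00%), with 376 genes (2.34%) at an unadjusted p under 0.05 and a smallest adjusted p of 0.393. DESeq2 called 0, with 33 at an unadjusted p under 0.05, and edgeR with no filter on low counts called 14. With 2 libraries at each length, this does not show that the lengths act alike.

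Promoters were searched for 3 kinds of word in the 250 bases before the gene start, on both strands, with a RefSeq promoter found for 11784 of the 16108 genes that passed the filter. Words of the E2F type were found in 6 of 8 scoring genes with a promoter. They were in 13 of 67 genes at least 2-fold higher in S cells (19.4%), 10.0% of the 1806 genes under 2-fold higher, 4.67% of 8307 genes not called, 3.82% of 1545 genes under 2-fold lower and 0 of 51 genes at least 2-fold lower, against 5.44% of all genes tested and 2.79% of all 35116 promoters. CHR words were in 29 of 51 G2 and mitosis genes (56.9%), against 13.8% of genes tested and 14.3% of all promoters. By difference, they were in 19.4% of genes at least 2-fold higher and 17.6% of genes at least 2-fold lower, so they did not separate these 2 classes. The NF-Y box was in 28 of 35 histone cluster genes (80.0%) and 40 of 51 G2 and mitosis genes (78.4%), against 41.0% of genes tested and 32.0% of all promoters. It was in 56.7% of genes at least 2-fold higher (47.2% without histone cluster genes) and 41.2% of genes at least 2-fold lower. A match is a run of letters, and binding was not measured.

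**Figure D5:**
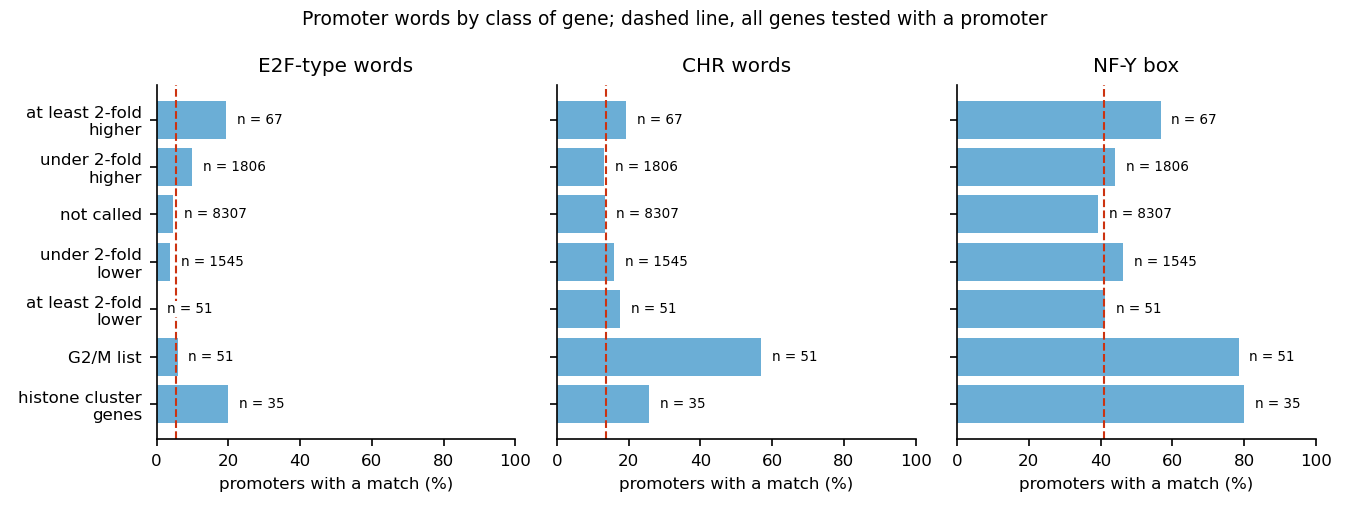
Share of promoters (250 bases before the gene start) that hold an E2F-type word, a CHR word or an NF-Y box, for classes of genes by their difference in S cells and for 2 gene lists, with n promoters beside each bar and a dashed line at the share among all genes tested. E2F-type words run from 19.4% in genes at least 2-fold higher to 0 of 51 in genes at least 2-fold lower, and CHR words reach 56.9% in the G2 and mitosis list. By difference, CHR words are in 19.4% of genes at least 2-fold higher and 17.6% of genes at least 2-fold lower.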

How the data were processed

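UMI counts per gene and cell were deposited by the authors as 6 matrices, and the file headers name Cell Ranger 6.1.2. The submitters' processing notes add bcl2fastq and the GRCh38 build. Their annotation release was not given. Barcodes under 500 genes or over 20% MT- UMIs were dropped (2.01% to 3.03% per library), tag sequences were left out of sums and tests, and no doublet caller was run. The members and gene lists were chosen with earlier results of these data known. Counts were summed per library and class, filtered with filterByExpr, scaled by TMM and fitted with edgeR 4.0.16 in R 4.3.3 (library block plus class, Benjamini-Hochberg over all genes tested). DESeq2 1.42.0 and other cell choices served as alternatives. Per-library log2 values used a prior count of 2. The fits were tested on simulated data. Named were up to 15 higher and 12 lower genes of at least 20 CPM, up to 4 list members per direction and up to 6 genes of the tag term of at least 10 CPM, all called, plus fixed cell cycle genes, except a few that are not reported here. Except for the tag term, the direction had to be the same in all libraries. Coordinates came from GENCODE 44. Sequences were taken from RefSeq, and none overlaps an annotated exon. Gene levels are TMM-scaled CPM, while marker and scoring gene levels are per total UMIs.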

Additional observations from a re-analysis of the deposited data

Results flagged for a closer look

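PLK1 was -0.48 (log2) in HaloTag 25R and between -1.62 and -1.19 in the other 5 libraries, a gap that sets this library apart. It was the only 1 of 75 named genes with such a gap, and the criterion marks about 1 in 20 groups by chance.

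For 49 named genes, edgeR called the term that compares the S cell difference between tags, larger in HaloTag for 39 and smaller for 10. All terms are log2, HaloTag minus Dendra2, and tag and sequencing cannot be told apart. Among entry, licensing and fork genes, the terms were FAM111B 0.72, E2F1 0.69, CDC45 0.66, E2F8 0.65, CLSPN 0.60, MCM10 0.55, CCNE1 0.50, POLD3 0.49, DNA2 0.45 and MCM4 0.35. Among repair and cohesion genes they were EXO1 0.80, DTL 0.63, ESCO2 0.62, CDCA5 0.49, BRIP1 0.48 and SMC1A 0.26, with AUNIP at 0.87. For nucleotide synthesis genes they were RRM2 0.52, RRM1 0.35 and DUT 0.29. Chromatin genes lay in the same range, with ATAD2 at 0.58, CHAF1B 0.57, CHAF1A 0.54, WDR76 0.54, ASF1B 0.45, SLBP 0.45, HELLS 0.40 and H2AFZ 0.27.

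Histone cluster genes went both ways. HIST1H4C was at 0.47, HIST1H2AH 0.45, HIST2H2AC 0.42, HIST1H1A 0.40 and HIST1H1E 0.31, whereas HIST1H1C was at -0.24 and HIST1H4E at -0.83. Genes of G2 and mitosis had positive terms, PIF1 0.65, CDK1 0.56, MKI67 0.51 and TOP2A 0.50, and so did CCNA2 with 0.45 and UBALD2 with 0.40. The other negative terms were those of MAF (-1.06), DBP (-0.88), DDIT3 (-0.79), IGFL2-AS1 (-0.44), MXD4 (-0.38), CCNG1 (-0.31), RPL23 (-0.22) and RPL3 (-0.12). Without HaloTag 25R the terms of HIST1H4C, PIF1 and UBALD2 were 0.27, 0.42 and 0.24, and that of DDIT3 was -0.44. Without HaloTag 52R the term of HIST1H4C was 0.94, and without HaloTag 70R that of RPL3 was -0.08. Leaving out 1 library ended the call in at least 1 fit for CHAF1B, ASF1B, BRIP1, HIST1H1E, HIST1H1C, PIF1, IGFL2-AS1, UBALD2, MXD4, RPL3 and DDIT3.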

How the results depend on the processing

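The 6 libraries paired S cells with remaining cells of the same library, and without this replicate block 220 genes were called in place of 4489 (179 higher, 41 lower), all of them also called with it. Against remaining cells above the library's median S share, an alternative chosen after seeing the data, 2418 genes were called (1282 higher, 1136 lower), of which 2017 were also called in the full comparison. With no filter on low counts, 1565 genes were higher and 3677 lower, with the median of all genes at -0.08, and DESeq2 called 1338 lower. Leaving out 1 library gave 3308 to 4150 genes.

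The count for the tag term, 643 (473 larger, 170 smaller in HaloTag), was 271 (248 and 23) by DESeq2, 387 (293 and 94) with the top 10% of S share, 393 (303 and 90) with S share ranked within bins of total UMIs and 74 (47 and 27) against remaining cells above the median. The count of smaller terms was 106 with no filter and 109 under each reduced score. Leaving out 1 library gave 367 to 934 in all and 44 to 311 smaller. For CTD length, 14 genes were called with no filter in place of 0.

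Differences that changed sign were those of TOP2A (0.17) and CCNA2 (0.12) when scored on PCNA, UNG, FEN1, TYMS and CCNE2, MKI67 (-0.14) and CDKN1A (-0.10) when scored on the licensing genes, and MKI67 (-0.048) and H2AFZ (-0.00082) against remaining cells above the median. In that last comparison the tag terms of HIST1H1C (0.048), PIF1 (-0.16), CCNA2 (-0.079), TOP2A (-0.0084) and UBALD2 (-0.062) also changed sign. The cause was not tested.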
